A study of Homo sapiens with 16 samples.

Results

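The 8 genes described here encode a nutrient-sensing loop at the lysosome: the transcription factors TFEB, TFE3 and MITF, the folliculin gene FLCN, its partners FNIP1 and FNIP2, and the Rag GTPase genes RRAGC and RRAGD. They were chosen by name and matched by symbol, 8 of the 58735 genes in the deposited table, and all 8 passed the filter on low counts. Earlier results of these data were known when they were chosen. Their counts beside all tested genes therefore only describe the set. Messenger RNA was sequenced from the triple-negative breast cancer lines MDA-MB-231 and SUM159 (titled SUM159PT in the labels), both labelled as wild type. Each line was given either DMSO, the solvent, or 8 uM of YES1i (CH6953755), which blocks the Src family tyrosine kinase YES1, and was collected 48 h later. The 4 groups were therefore MDA-MB-231 with DMSO, MDA-MB-231 with YES1i, SUM159 with DMSO and SUM159 with YES1i, with 4 libraries in each and 16 in all. MDA-MB-231 grew in RPMI and SUM159 in Ham/F12, so that line and medium cannot be told apart. The inhibitor was used at 1 dose and 1 time, and the series text calls the libraries of a group technical replicates, so p-values measure only the spread between these libraries.

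In cells with ample amino acids, the Rag GTPases hold the kinase complex mTORC1 on the lysosomal surface, and RagC or RagD in addition binds TFEB and TFE3 there so that mTORC1 can phosphorylate them. Phosphorylated factors are held in the cytoplasm by 14-3-3 proteins. Folliculin, in complex with FNIP1 or FNIP2, stimulates GTP hydrolysis by RagC and RagD, which this step requires. When it fails, the factors enter the nucleus and activate genes of lysosomes and autophagy, and the genes for folliculin, the FNIP proteins, RagC and RagD have themselves been described as targets, which closes a feedback loop. The factors bind the E-box CACGTG, found within a longer element called CLEAR in many lysosomal gene promoters.

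Promoter windows reaching from 250 bases upstream of an annotated start to 50 bases downstream were available from RefSeq (GRCh38.p14) for 7 of the 8 genes, with 12 windows in all. RRAGD had no window, so its promoter was not searched. The letters CACGTG, which read the same on both strands, occurred in 2 of these 12 windows, against 2548 of 35116 windows (7.26%) over the annotation. They were in the windows of FNIP1, with matches at 175 and 94 bases upstream of its start, and of RRAGC, with a match at 112 bases upstream. At least 2 matches, as in FNIP1, were present in 0.664% of all windows. Extended to CACGTGAC on either strand, the letters were in the same number of the genes' windows, 2, and in 2.4% of all windows. The 8-letter core of the CLEAR element, TCACGTGA, was in 0 of the 12 windows and in 0.98% of all. The related letters CATGTG, searched on both strands, were in 1 of the 12 windows, a window of FNIP2, and in 11.1% of all windows. A match describes letters only and does not show binding. The parts of 3 windows that lie upstream of every annotated start of the gene are shown, from position -250 to -47 for FNIP1, to -52 for RRAGC and to -21 for FLCN, counted from the RefSeq start. Those of FNIP1 and RRAGC hold the E-box, and that of FLCN is given as a window without it. A link between these letters and the change with YES1i was not tested. All 3 parts are printed 5′ to 3′ on the gene's strand with CACGTG in capitals. They lie at chr5:131797064-131797267, chr1:38859824-38860022 and chr17:17237189-17237418, in that order, all on the minus strand.
FNIP1: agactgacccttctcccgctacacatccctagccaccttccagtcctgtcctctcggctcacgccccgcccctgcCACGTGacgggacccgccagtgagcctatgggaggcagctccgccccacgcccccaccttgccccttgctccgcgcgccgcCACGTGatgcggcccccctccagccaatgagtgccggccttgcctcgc
RRAGC: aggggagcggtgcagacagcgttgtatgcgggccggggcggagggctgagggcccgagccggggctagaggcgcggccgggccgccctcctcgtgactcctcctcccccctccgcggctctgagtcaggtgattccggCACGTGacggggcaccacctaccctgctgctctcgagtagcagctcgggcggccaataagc
FLCN: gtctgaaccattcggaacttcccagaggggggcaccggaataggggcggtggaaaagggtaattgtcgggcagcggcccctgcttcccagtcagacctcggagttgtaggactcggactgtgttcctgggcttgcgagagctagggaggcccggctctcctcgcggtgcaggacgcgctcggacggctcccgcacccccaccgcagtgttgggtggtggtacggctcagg

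Total counts ran from 15876171 to 36261542 per library, so that 3 counts, the limit a count of 0 allows, corresponded to 0.0827 to 0.189 CPM (counts scaled to library size). This limit covers counting error only. Levels are given in CPM after TMM scaling, a correction for differences in RNA composition. Of 9 markers of breast carcinoma and receptor status, KRT8, KRT18 and VIM were abundant in both lines, while PGR reached at most 0.114 CPM and ESR1 at most 0.734 CPM. The epithelial marker CDH1 was at 0 in all SUM159 libraries. EPCAM, KRT5 and ERBB2 completed the 9. In each treatment group 3 of the 9 were under 1 CPM in every MDA-MB-231 library and 4 in every SUM159 library. Of the 8 tested, 4 were higher and 4 lower in MDA-MB-231 than in SUM159 with DMSO (log2 -7.26 to 9.41). Of all tested genes 37.8% were higher and 38.7% lower in that comparison. Mitochondrial rRNA took 0.619% to 0.678% of counts with DMSO and 1.29% to 1.39% with YES1i in MDA-MB-231, and 0.658% to 0.810% against 1.28% to 1.48% in SUM159. It moved with every treatment comparison below, and its part in them was not tested.

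With YES1i, transcripts of the folliculin and Rag arm rose in both lines. All 5 genes of that arm, FLCN, FNIP1, FNIP2, RRAGC and RRAGD, rose in each line, with RRAGD rising furthest. Of the 3 factors, TFEB and TFE3 rose in MDA-MB-231 and none was called in SUM159. In MDA-MB-231, 7 of the 8 genes were higher and 0 lower at an adjusted p under 0.05 (edgeR quasi-likelihood test, Benjamini-Hochberg over 17647 genes), where 26.8% of all tested genes were higher and 22.1% lower. In SUM159, 5 were higher and 0 lower, against 25.1% and 26.5% of all. The median log2 fold change of the 8 genes was 0.58 in MDA-MB-231 and 0.32 in SUM159, beside 0.03 and 0.02 over all tested genes. In the same 7 and 5 genes every YES1i library lay above every DMSO library, an arrangement seen in 25.5% of tested genes in MDA-MB-231 and 20.5% in SUM159. Of all calls in SUM159, 48.7% were higher, and 63.4% with upper quartile scaling, under which the all-gene median in that line went from 0.02 to 0.14. In bulk libraries, fewer cells with a transcript and less of it per cell cannot be told apart.

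**Figure D1:**
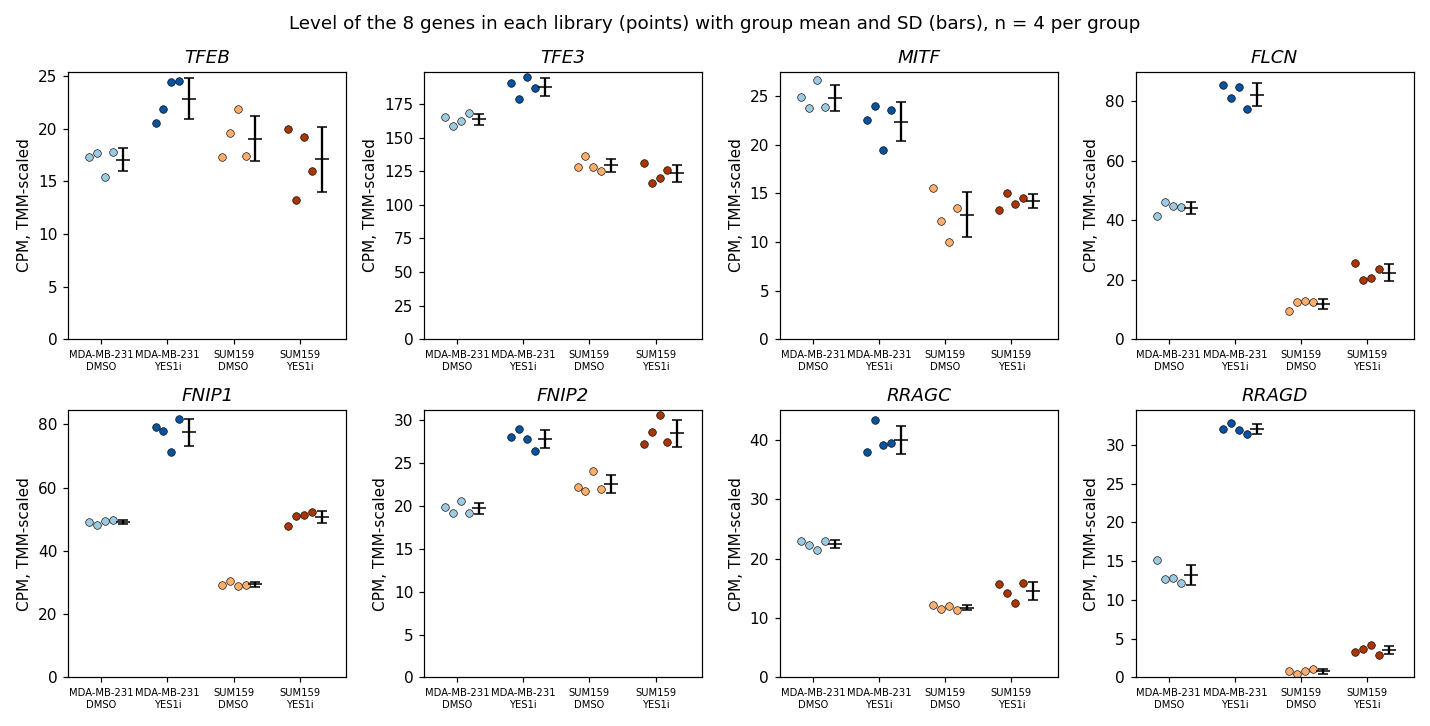
Level of each of the 8 genes in CPM (TMM-scaled, axis from 0) in every library, by group; points are libraries and bars the group mean with SD (n = 4). The YES1i points stand clear of the DMSO points of the same line for FLCN, FNIP1, FNIP2, RRAGC and RRAGD, whereas those of MITF overlap in both lines.

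FLCN encodes folliculin, the tumour suppressor lost in Birt-Hogg-Dubé syndrome (ENSG00000154803, chr17:17212212-17237188, minus strand, hg38). In MDA-MB-231 its level was 41.5, 46.2, 44.7 and 44.4 CPM in the DMSO libraries and 85.6, 81.1, 84.8 and 77.2 CPM in the YES1i libraries. In SUM159 it was 9.47, 12.5, 12.8 and 12.5 CPM with DMSO and 25.6, 19.7, 20.4 and 23.7 CPM with YES1i. Treated and control libraries did not overlap in either line, and every SUM159 library, treated or not, lay below every MDA-MB-231 library. The mean thus rose from 44.2 ± 1.98 to 82.2 ± 3.83 CPM (SD, n = 4) in MDA-MB-231, a log2 fold change of 0.89 (SE 0.08, adjusted p = 9.9e-11). In SUM159 it rose from 11.8 ± 1.56 to 22.4 ± 2.75 CPM, a log2 fold change of 0.94 (SE 0.09, adjusted p = 1.07e-09). The difference between the 2 changes was -0.04 (95% interval -0.29 to 0.20, adjusted p = 0.835), so that any difference was not detectable within that interval. FLCN overlaps MPRIP, a gene on the opposite strand with 16.1 times its total count, and the labels leave the strand setting open. The 2 genes share 0 exon bases in the annotation, and MPRIP itself fell in MDA-MB-231 (log2 fold change -0.36) and rose in SUM159 (0.40). FLCN shares 1161 exon bases with AC055811.2, a gene on its own strand with 34 reads in all. In the same way RRAGC shares 1183 of its 5167 exon bases with AL139260.2 and FNIP1 281 with AC008695.1, both with 0 reads. How reads on shared bases were counted is not given.

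FNIP1 and FNIP2 encode the alternative partners through which folliculin folds into its active complex. FNIP1 (ENSG00000217128, chr5:131641714-131797063, minus strand) stood at 49.0, 48.2, 49.4 and 49.9 CPM with DMSO in MDA-MB-231 and at 79.1, 77.8, 71.4 and 81.7 CPM with YES1i. In SUM159 it stood at 29.1, 30.7, 28.8 and 29.1 CPM with DMSO and at 47.9, 51.1, 51.2 and 52.3 CPM with YES1i. The control libraries of each line were tightly grouped, and the treated SUM159 libraries came up to the level of untreated MDA-MB-231. The log2 fold change was 0.66 (SE 0.06, adjusted p = 4.74e-11) in MDA-MB-231 and 0.78 (SE 0.06, adjusted p = 3.5e-12) in SUM159. The 2 changes differed by -0.13 (95% interval -0.29 to 0.04, adjusted p = 0.251), or by -0.24 with upper quartile scaling, where the difference was called (adjusted p = 0.0277).

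FNIP2 (ENSG00000052795, chr4:158769138-158908049, plus strand) was at 19.9, 19.2, 20.6 and 19.2 CPM with DMSO in MDA-MB-231 and at 28.0, 29.02, 27.8 and 26.4 CPM with YES1i. The SUM159 libraries were at 22.3, 21.8, 24.1 and 22.0 CPM with DMSO and at 27.2, 28.7, 30.6 and 27.4 CPM with YES1i. It rose less than FNIP1 in log2 terms in each line, by 0.49 (SE 0.07, adjusted p = 8.04e-07) in MDA-MB-231 and 0.34 (SE 0.07, adjusted p = 0.000156) in SUM159, though this contrast between genes was not tested. It was the only one of the 8 genes called lower in MDA-MB-231 than in SUM159 with DMSO (log2 difference -0.19, adjusted p = 0.0153). That call was lost without MDA-MB-231 DMSO replicate 2 (adjusted p = 0.0584), without replicate 4 of the same group (0.0613) and without SUM159 DMSO replicate 3 (0.0878). With YES1i the lines overlapped, at 27.8 ± 1.08 and 28.5 ± 1.56 CPM (SD, n = 4).

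RRAGC and RRAGD encode the GTPases on which the folliculin complex acts. RRAGC (ENSG00000116954, chr1:38838198-38859823, minus strand) was at 23.0, 22.4, 21.5 and 23.0 CPM with DMSO in MDA-MB-231 and at 38.1, 43.4, 39.3 and 39.5 CPM with YES1i. Its SUM159 levels were 12.3, 11.5, 12.02 and 11.4 CPM with DMSO and 15.7, 14.3, 12.5 and 15.9 CPM with YES1i. The treated libraries were well clear of the controls in MDA-MB-231, whereas in SUM159 the lowest treated library was just above the highest control. RRAGC rose by 0.83 (log2, SE 0.08, adjusted p = 1.77e-10) in MDA-MB-231 and by 0.31 (SE 0.08, adjusted p = 0.0031) in SUM159. The rise was larger in MDA-MB-231 by 0.53 (SE 0.11, adjusted p = 0.000531).

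RRAGD (ENSG00000025039, chr6:89364636-89412270, minus strand) had, on the log2 scale, the largest change and the largest difference between the lines of the 8 genes. In MDA-MB-231 its level was 15.2, 12.7, 12.8 and 12.2 CPM with DMSO and 32.0, 32.9, 31.9 and 31.4 CPM with YES1i. In SUM159 it was 0.801, 0.387, 0.871 and 1.12 CPM with DMSO, from 28, 6, 19 and 19 reads, and 3.27, 3.62, 4.15 and 2.94 CPM with YES1i, from 55, 78, 75 and 68 reads. The highest treated SUM159 library was still below the lowest control library of MDA-MB-231. The log2 fold change was 1.28 (SE 0.10, adjusted p = 1.74e-11) in MDA-MB-231 and 2.10 (SE 0.19, adjusted p = 1.41e-10) in SUM159. On this log scale the rise was larger in SUM159, by 0.83 (SE 0.22, adjusted p = 0.00425), the opposite order to RRAGC. With DMSO, RRAGD was 16.3-fold higher in MDA-MB-231 than in SUM159 (log2 4.03, SE 0.16), and with YES1i 9.19-fold.

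**Figure D2:**
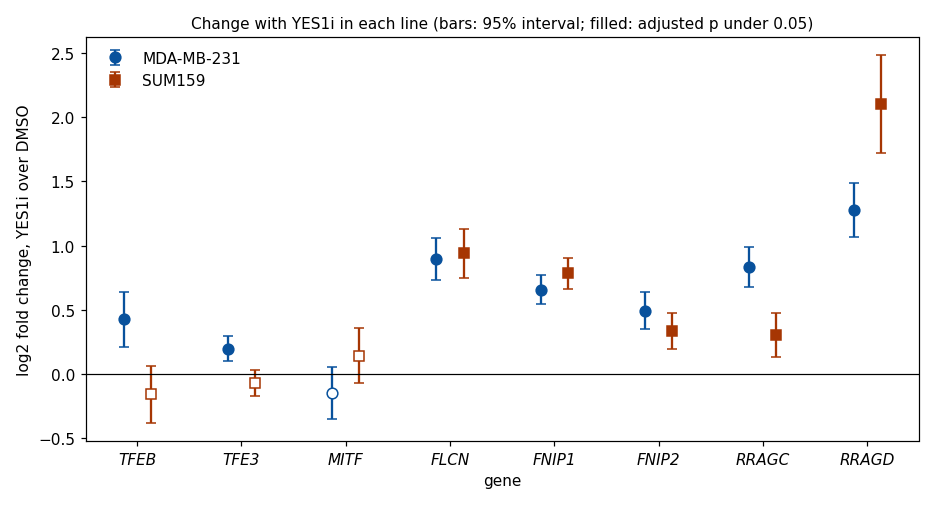
Log2 fold change with YES1i over DMSO for each gene in MDA-MB-231 (circles) and SUM159 (squares), with 95% intervals; filled marks have an adjusted p under 0.05. FLCN lies at 0.89 and 0.94, RRAGC is higher in MDA-MB-231 and RRAGD higher in SUM159, and the 3 open squares are the transcription factors in SUM159.

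Among the transcription factors, TFEB is the best known driver of lysosomal gene expression (ENSG00000112561, chr6:41683978-41736259, minus strand). Its level in MDA-MB-231 was 17.3, 17.7, 15.5 and 17.8 CPM with DMSO and 20.6, 21.8, 24.5 and 24.5 CPM with YES1i. Its level in SUM159 was 17.3, 19.6, 21.9 and 17.4 CPM with DMSO and 19.9, 13.2, 19.2 and 15.97 CPM with YES1i. The groups were apart in MDA-MB-231 and overlapped in SUM159. TFEB rose by 0.42 (log2, SE 0.11, adjusted p = 0.00136) in MDA-MB-231. In SUM159 the value was -0.16 (95% interval -0.38 to 0.06, adjusted p = 0.214), and the 2 changes differed by 0.59 (SE 0.15, adjusted p = 0.00332).

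TFE3, a close relative with shared targets (ENSG00000068323, chrX:49028726-49043486, minus strand), was at 166, 159, 162 and 168 CPM with DMSO in MDA-MB-231 and at 190, 179, 195 and 187 CPM with YES1i. For SUM159 the values were 128, 137, 128 and 126 CPM with DMSO and 131, 117, 120 and 126 CPM with YES1i. The MDA-MB-231 groups were apart by a small step and the SUM159 groups overlapped. The log2 fold change was 0.20 (SE 0.05, adjusted p = 0.00116) in MDA-MB-231 and -0.07 (95% interval -0.17 to 0.03, adjusted p = 0.243) in SUM159, where upper quartile scaling gave 0.05 (adjusted p = 0.39). The changes differed by 0.27 (SE 0.07, adjusted p = 0.00346), a call lost with upper quartile scaling (0.16, adjusted p = 0.0741).

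MITF, the lineage factor of melanocytes (ENSG00000187098, chr3:69739435-69968337, plus strand), was at 24.9, 23.8, 26.7 and 23.8 CPM with DMSO in MDA-MB-231 and at 22.5, 24.0, 19.5 and 23.6 CPM with YES1i. SUM159 libraries held it at 15.5, 12.2, 10.0 and 13.5 CPM with DMSO and at 13.3, 15.1, 13.9 and 14.5 CPM with YES1i. Treated and control libraries overlapped in both lines, and all MDA-MB-231 libraries lay above all SUM159 libraries. MITF was called in neither line, with log2 fold changes of -0.15 (95% interval -0.35 to 0.05, adjusted p = 0.213) in MDA-MB-231 and 0.14 (95% interval -0.07 to 0.35, adjusted p = 0.269) in SUM159. It was called lower in MDA-MB-231 when that line was fitted alone (-0.19, adjusted p = 0.0281). It was called higher in SUM159 with upper quartile scaling (0.26, adjusted p = 0.0424) and without SUM159 DMSO replicate 1 (0.26, adjusted p = 0.0392). The annotation holds 18 MITF transcripts with 15 start sites, and gene counts do not tell its isoforms apart.

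The changes with YES1i differed between the lines for 4 of the 8 genes, where 31.1% of all tested genes differed: they were more positive in MDA-MB-231 for TFEB, TFE3 and RRAGC, and less positive for RRAGD. Over all tested genes 19.1% were called in the first direction and 12.1% in the second, and the share of these calls in the first direction was 61.2%, or 43.9% with upper quartile scaling, which moved the median difference of all genes from 0.04 to -0.07. With that scaling MITF, FNIP1 and RRAGD, 3 genes, were called in the second direction. With DMSO, 6 genes were higher in MDA-MB-231 and FNIP2 was lower, where 37.8% of all tested genes were higher and 38.7% lower. The log2 differences of the 6 were 4.03 for RRAGD, 1.92 for FLCN, 0.94 for MITF, 0.93 for RRAGC, 0.74 for FNIP1 and 0.34 for TFE3. With YES1i, 7 genes were higher in MDA-MB-231, all but FNIP2, and 0 lower, against 41.0% and 38.5% of all tested genes, TFEB among the former with 0.43 (adjusted p = 0.000637).

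FLCN, RRAGC and RRAGD shared 1 order of levels over the 4 groups, with MDA-MB-231 with YES1i highest, then MDA-MB-231 with DMSO, SUM159 with YES1i and SUM159 with DMSO, and no neighbouring groups overlapped. FNIP1 kept the same ends, but untreated MDA-MB-231 (49.1 ± 0.701 CPM, SD, n = 4) and treated SUM159 (50.6 ± 1.91 CPM) overlapped. For FNIP2 the treated groups overlapped at the top and the control groups lay below them. For TFE3 treated MDA-MB-231 was highest, untreated MDA-MB-231 lay clear below it, and the SUM159 groups overlapped at the bottom. MITF levels split by line alone. For TFEB treated MDA-MB-231 (22.9 ± 1.96 CPM) overlapped with untreated SUM159 (19.0 ± 2.15 CPM), and the remaining neighbours overlapped too.

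Levels of different genes can be set side by side only per length, here as RPKM, the CPM divided by the gene's length in kilobases from the table. That length joins the exons of all annotated transcripts, 17 for TFEB, 5 for TFE3 and 18 for MITF. Which transcripts were present was not tested, so levels and shares between genes are approximate. On that scale TFE3 was the most abundant factor, at 38.3 ± 0.964 RPKM in untreated MDA-MB-231 and 30.3 ± 1.12 RPKM in untreated SUM159 (SD, n = 4). TFEB stood at 3.02 ± 0.193 and 3.37 ± 0.38 RPKM and MITF at 3.45 ± 0.187 and 1.78 ± 0.319 RPKM in the same groups. TFE3 made up 85.5% ± 0.284 of the summed level of the 3 factors in untreated MDA-MB-231 and 85.9% ± 0.856 with YES1i, and 85.4% ± 0.477 and 85.2% ± 0.926 in SUM159. The share of TFE3 was thus alike in all groups, between 84.0% and 86.8% in single libraries. TFEC, the fourth gene of the family, had at most 2 reads in any library.

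The balance between the 2 Rag genes moved toward RRAGD. Per length, RRAGD made up 37.4% ± 2.16 (SD, n = 4) of the sum of RRAGC and RRAGD in untreated MDA-MB-231 and 44.9% ± 1.11 with YES1i. In SUM159 it made up 6.38% ± 2.37 without and 19.8% ± 4.09 with YES1i. Treated and control libraries did not overlap in either line, at 35.0% to 40.2% against 43.5% to 46.2% and at 3.32% to 9.07% against 15.9% to 25.2%. The level of RRAGC per length depends on how reads on the exon bases it shares with AL139260.2 were counted, which is not given. FNIP2 made up 22.7% ± 0.569 of the sum of FNIP1 and FNIP2 in untreated MDA-MB-231 and 20.8% ± 1.3 with YES1i, where libraries overlapped. In SUM159 its share was 35.9% ± 1.54 without and 29.1% ± 1.1 with YES1i, and libraries did not overlap.

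**Figure D3:**
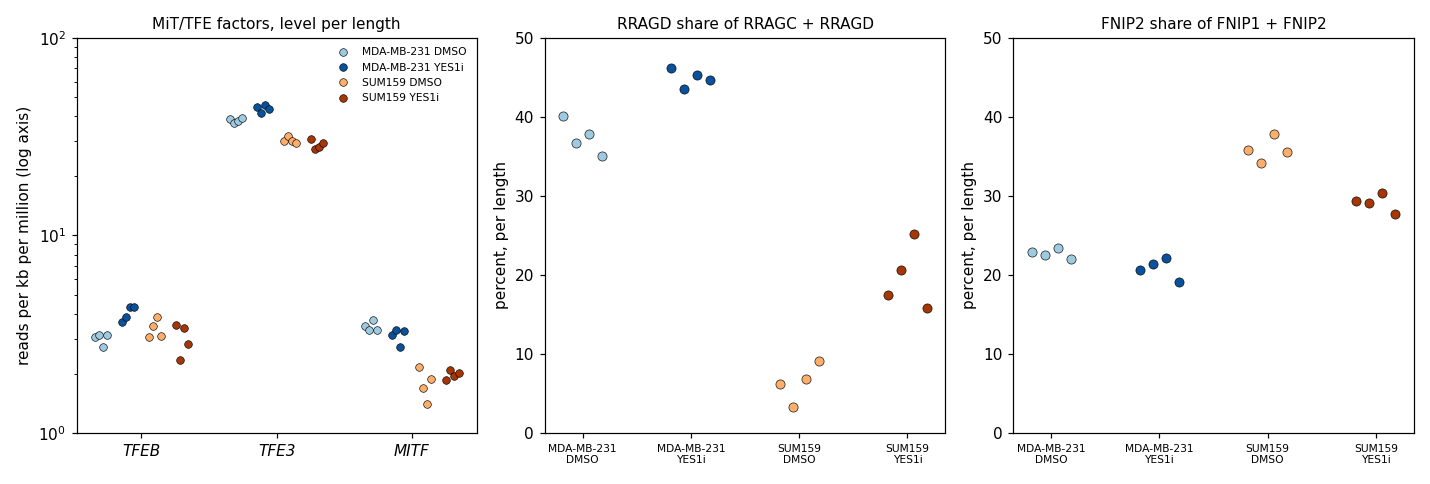
Left, level per length of TFEB, TFE3 and MITF in each library (RPKM, log axis); middle and right, RRAGD as a percent of RRAGC plus RRAGD and FNIP2 as a percent of FNIP1 plus FNIP2, per length, each point a library. TFE3 stands far above the other factors in every library, and the RRAGD share steps up with YES1i from 37.4% to 44.9% and from 6.38% to 19.8%.

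The other genes of the pathway were followed through lists. Of 14 genes of the remaining Rag proteins, the Ragulator scaffold and mTORC1, 8 were higher and 4 lower with YES1i in MDA-MB-231 (median log2 fold change 0.29), where 26.8% and 22.1% of all tested genes were called. In SUM159, 5 were higher and 4 lower (median 0.00), beside 25.1% and 26.5% of all tested genes. The 4 lower became 2 with RLE scaling, 1 with upper quartile scaling and 2 in 11 of the 16 fits that left out 1 library, all but those without MDA-MB-231 YES1i replicate 1 and SUM159 DMSO replicates 1 and 4 and YES1i replicates 1 and 2. RRAGB, whose product pairs with RagC or RagD, rose by 0.60 (SE 0.08) in MDA-MB-231, from 18.4 ± 0.415 to 27.8 ± 0.918 CPM (SD, n = 4). In SUM159 RRAGB rose by 0.81 (SE 0.09), from 7.92 ± 0.709 to 14.02 ± 0.947 CPM. LAMTOR3, a Ragulator subunit, rose by 0.82 (SE 0.08) in MDA-MB-231 and by 0.28 in SUM159. DEPTOR, an inhibitory partner of mTOR, rose in SUM159 from 7.08 ± 0.653 to 19.9 ± 0.815 CPM, a log2 fold change of 1.49 (SE 0.13, adjusted p = 7.51e-11). In MDA-MB-231 DEPTOR was under 1 CPM and its value of 0.80 was just called (adjusted p = 0.0484); the call was lost in 14 of the 16 fits without 1 library, all but those without DMSO replicate 2 and YES1i replicate 3 of that line, and with RLE scaling, no filter, limma-voom and the line fitted alone.

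The list divided by complex, a grouping made after the values were seen. Of the 5 Ragulator genes 4 rose and 0 were lower in MDA-MB-231, beside 26.8% and 22.1% of all tested genes. In SUM159 1 rose and 2 were lower, beside 25.1% and 26.5% of all tested genes. The number lower in SUM159 was 0 with upper quartile scaling, 1 with RLE scaling and 1 in 13 of the 16 fits that left out 1 library, all but those without MDA-MB-231 YES1i replicate 1, SUM159 DMSO replicate 4 and SUM159 YES1i replicate 2. The kinase gene MTOR, its partners RPTOR and MLST8 and the activator RHEB were all lower in MDA-MB-231, by 0.21 to 0.28 on the log2 scale. In SUM159 MTOR fell by 0.47, RHEB and RPTOR rose by 0.17 and 0.21, and MLST8 was at 0.11 without a call (adjusted p = 0.188), or at 0.23 with one under upper quartile scaling (adjusted p = 0.00502).

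Upstream, 21 genes of the GATOR and KICSTOR complexes, the amino acid sensors and the TSC complex had 8 higher and 2 lower in MDA-MB-231 (median 0.22), or 1 lower without DMSO replicate 4 or YES1i replicate 2 of that line, beside 26.8% and 22.1% of all tested genes. In SUM159, 6 were higher and 8 lower (median -0.05), beside 25.1% and 26.5% of all tested genes. With upper quartile scaling 3 were lower there. TSC1, the scaffold of the complex that switches off RHEB, rose in both lines, by 0.61 (SE 0.06) and 0.56 (SE 0.06). SESN3, a sestrin that restrains GATOR2, rose by 0.87 (SE 0.10) in MDA-MB-231, from 10.1 ± 1.23 to 18.4 ± 2.95 CPM, and by 0.48 in SUM159. MIOS, a GATOR2 subunit, fell by 0.49 (SE 0.06) in SUM159, from 158.8 ± 6.4 to 113 ± 8.54 CPM.

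A further list held 25 genes for kinases, phosphatases, 14-3-3 and ATG8 family proteins and the export receptor that act on the factors or on folliculin. In MDA-MB-231, 5 of the 25 were higher and 10 lower (median 0.02), beside 26.8% and 22.1% of all tested genes. In SUM159, 3 were higher and 13 lower (median -0.22), beside 25.1% and 26.5% of all tested genes. Upper quartile scaling gave 7 higher in SUM159. The 14-3-3 genes, again grouped after the values were seen, had 5 of 7 lower in MDA-MB-231, beside 22.1% of all tested genes. In SUM159, 7 of 7 were lower, beside 26.5% of all tested genes. RLE and upper quartile scaling left the numbers of 14-3-3 genes called lower as they were. Of the 14-3-3 genes, SFN fell by 1.97 (SE 0.08, adjusted p = 2.71e-16) in SUM159, from 93.0 ± 6.1 to 23.8 ± 4.09 CPM, while its value in MDA-MB-231 was 0.07 (adjusted p = 0.462). XPO1, the export receptor that returns TFEB to the cytoplasm, fell by 0.66 (SE 0.05) in MDA-MB-231, from 304 ± 11.4 to 193 ± 4.84 CPM, and by 0.26 in SUM159. GABARAPL1, an ATG8 family protein of autophagosomes, rose by 0.83 (SE 0.08) in MDA-MB-231 and 1.03 (SE 0.08) in SUM159.

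Of 33 known target genes of the factors in lysosomes and autophagy, 30 were higher and 1 lower with YES1i in MDA-MB-231 (median 0.89). Of all tested genes, 26.8% were higher and 22.1% lower there. In SUM159, 18 targets were higher and 3 lower (median 0.31), beside 25.1% and 26.5% of all tested genes. The change was more positive in MDA-MB-231 for 29 of the 33 targets and less positive for 2, beside 19.1% and 12.1% of all tested genes. With upper quartile scaling 23 differed in the first direction. The lower gene in MDA-MB-231 was GLA, a lysosomal galactosidase (log2 fold change -0.31), which was also lower in SUM159 (-0.77) together with ATP6V0D1 and VPS18; these were named after their values were seen. PPARGC1A, a coactivator of mitochondrial genes, rose from 2.65 ± 0.718 to 22.4 ± 1.41 CPM in MDA-MB-231 and from 2.83 ± 0.128 to 24.7 ± 1.55 CPM in SUM159 (SD, n = 4). Its log2 fold changes were 3.07 (SE 0.12) and 3.13 (SE 0.12). PPARGC1A, GPNMB and ATP6V0D2 were named for the size of their change among called targets. Their level limit, 5 CPM averaged over the DMSO and YES1i libraries of a line, was reached through the YES1i libraries.

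GPNMB, a membrane glycoprotein and known target of MITF and TFE3, rose from 0.657 ± 0.179 to 16.9 ± 1.77 CPM in SUM159 (log2 fold change 4.63, SE 0.19) and from 0.821 ± 0.367 to 8.48 ± 0.545 CPM in MDA-MB-231 (3.38). ATP6V0D2, a subunit of the lysosomal proton pump, rose in MDA-MB-231 from 0.306 ± 0.0461 CPM, with 5 to 7 reads per library, to 11.2 ± 0.366 CPM, with 182 to 245 reads. The log2 fold change of ATP6V0D2 was 5.17 (SE 0.32) there. In SUM159 it had 0 to 9 reads per library in each group and a value of 0.41 (adjusted p = 0.64), which ran from -0.26 to 1.77 when single libraries were left out and was called without SUM159 DMSO replicate 2 (adjusted p = 0.0388).

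**Figure D4:**
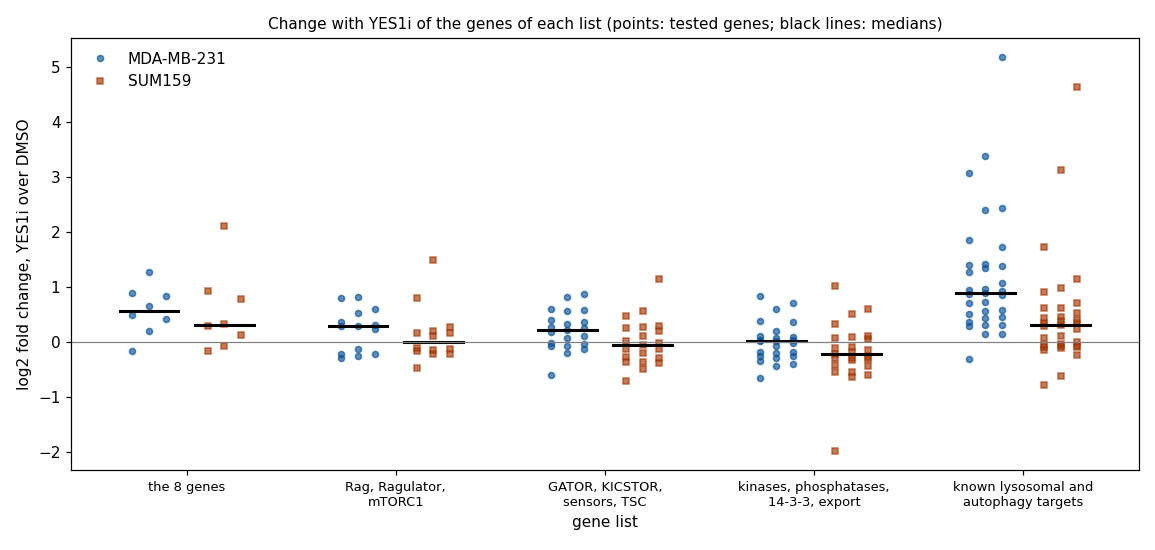
Log2 fold change with YES1i over DMSO for the tested genes of 5 sets, in MDA-MB-231 (circles) and SUM159 (squares), with the list medians as black lines. The known targets have medians of 0.89 and 0.31 and the 8 genes 0.58 and 0.32, whereas the medians of the kinase, phosphatase, 14-3-3 and export list are 0.02 and -0.22.

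The melanocyte genes that MITF is known to drive were near the floor. Of 8 such genes 2, PMEL and TYRP1, passed the filter on low counts. Neither was called in MDA-MB-231, and TYRP1 was called in SUM159, at 1.54 ± 0.126 CPM with DMSO and 2.39 ± 0.593 CPM with YES1i (log2 fold change 0.64, adjusted p = 0.0447). The 9 melanocyte markers summed to 1.38 to 3.15 CPM in MDA-MB-231 and 2.78 to 5.36 CPM in SUM159, with TYR at 0 in every library. Osteoclasts also use MITF and the lysosomal genes above. The 5 osteoclast markers summed to 3.33 to 5.67 CPM with DMSO and 7.62 to 9.003 CPM with YES1i in MDA-MB-231, and to 1.24 to 2.13 against 3.21 to 5.30 CPM in SUM159, so that they moved with the target genes. Of the 3 tested, 2 were called higher in each line (median log2 fold change 1.05 in MDA-MB-231 and 1.33 in SUM159). Of all tested genes, 26.8% were higher in MDA-MB-231 and 25.1% in SUM159. OCSTAMP was at 0 in every library. The 6 leukocyte markers summed to 9.98 to 11.8 CPM with DMSO and 12.1 to 14.5 CPM with YES1i in MDA-MB-231, mostly CSF1R, and to 0.822 to 1.51 against 2.73 to 3.21 CPM in SUM159. The part of these markers in the results was not tested.

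Genes whose pattern within the lines was most like that of each of the 8, over 16 libraries, were ranked among 10876 genes at 5 CPM or more on average, by Pearson correlation of log2 CPM after centring each line. Centred values keep the step with treatment, which all these libraries share, so the values only describe likeness. FLCN was closest to CAMKK1 (r = 0.98, n = 16), FNIP1 to BSDC1 (0.99), FNIP2 to SIAE (0.97), RRAGC to KLHDC2 (0.99) and RRAGD to SEL1L (0.98). The factors had looser neighbours, GPX3 for TFEB (0.94), DEF8 for TFE3 (0.94) and RSBN1 for MITF (0.86). Likeness within lines did not extend to the levels of the lines for every pair: without centring, r was -0.32 for FLCN with CAMKK1 and -0.37 for TFE3 with DEF8, and 1.00 for RRAGC with KLHDC2. KLHDC2 rose by 0.67 in MDA-MB-231 and 0.29 in SUM159, beside 0.83 and 0.31 for RRAGC. SEL1L, a component of protein quality control in the endoplasmic reticulum, rose by 0.43 and 0.59, so that its larger change too was in SUM159.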

How the data were processed

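Poly(A) RNA of 16 libraries was analysed from a table of whole read counts per gene that the authors deposited. It was made with HISAT2 2.0.5, featureCounts 1.5.0-p3 and the build hg38, per the submitters' processing notes, which give no role or order. How strand and multi-mapped reads were handled is not given in the sources used here, and the series text speaks of transfection where the treatment protocol speaks of treatment. The deposited gene identifiers had the coordinates of GENCODE 29 for all 58735 genes. The other deposited value used was gene length, taken for RPKM.

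Counts were fitted in edgeR 4.0.16 (R 4.3.3): filterByExpr left 17647 genes, TMM scaling, robust quasi-likelihood, 1 mean per group over all 16 libraries, 5 contrasts, and Benjamini-Hochberg over all tested genes, with calls at an adjusted p under 0.05. SEs were derived from the F statistic. The steps were tested on simulated counts in which only a small part of the genes changed. That test does not cover the choice of scaling where many genes change, as here. The 8 genes and the gene lists were chosen with earlier results of these data known. From each list the 2 called genes with the largest change in each line were named. They had to reach 5 CPM on average over the DMSO and YES1i libraries of that line. PPARGC1A in both lines, GPNMB in SUM159 and ATP6V0D2 in MDA-MB-231 did so through the YES1i libraries. Alternatives were scaling by RLE or the upper quartile, a fit in DESeq2 1.42.0, one in limma-voom (limma 3.58.1), no filter, each line alone, a replicate block, an adjusted p under 0.01 and leaving out each library.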

Additional observations from a re-analysis of the deposited data

Results flagged for a closer look

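The change with YES1i differed between the lines in the test of the difference itself (MDA-MB-231 minus SUM159, log2) for TFEB (0.59), TFE3 (0.27), RRAGC (0.53) and RRAGD (-0.83). The same held among the named pathway genes for LAMTOR3 (0.54), MIOS (0.42), SESN3 (0.39), XPO1 (-0.39), SFN (2.04), ATP6V0D2 (4.76) and GPNMB (-1.24). The pathway genes were named for a large change in a line, seen in these same libraries. That choice favours a difference between the lines, so these values only describe the named genes. Of all tested genes, 31.1% were called for a difference. The SESN3 difference lost its call with upper quartile scaling (0.28, adjusted p = 0.11), at a threshold of 0.01 (adjusted p = 0.016) and without MDA-MB-231 DMSO replicate 3 (adjusted p = 0.0616), DMSO replicate 4 (0.0509) or YES1i replicate 1 (0.0633).

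In some groups of 4 libraries 1 library stood apart from the others by Dixon's test, which chance alone does in about 1 group in 20. The search covered every group for the genes of the loop and the named pathway genes, so some such libraries arise by chance alone. Whether the libraries listed here exceed that rate was not tested, so their values are only described. FLCN was at 9.47 CPM in SUM159 DMSO replicate 1, below the other libraries of its group, and FNIP1 was at 30.7 CPM in SUM159 DMSO replicate 2, above them. LAMTOR3 was high in SUM159 DMSO replicate 1 (29.4 CPM) and in SUM159 YES1i replicate 2 (35.0 CPM), and ATP6V0D2 was high in MDA-MB-231 YES1i replicate 3 (11.8 CPM).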

How the results depend on the processing

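The rises of FLCN, FNIP1, FNIP2, RRAGC and RRAGD in both lines, and of TFEB and TFE3 in MDA-MB-231, kept their direction and call under every alternative run. With upper quartile scaling 3 of the 8 genes, in place of 1, were called less positive in MDA-MB-231 than in SUM159, and TFE3 in SUM159 turned to 0.0497. The TSC1 difference between lines turned to -0.00237 with RLE scaling, -0.056 with upper quartile scaling and -0.00316 with DESeq2. With each line fitted alone, 1 of the 8 genes (MITF) was lower in MDA-MB-231, against 0. At an adjusted p under 0.01, 0 of the 8 genes were lower in MDA-MB-231 than in SUM159 with DMSO, and 1372 in place of 2127 genes had a less positive change in MDA-MB-231. The cause of these moves was not tested.

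Leaving out single libraries gave 1 to 2 genes of the 8 with a less positive change in MDA-MB-231; the second was MITF (-0.41, adjusted p = 0.0209), without SUM159 DMSO replicate 1. It gave 0 to 1 lower there with DMSO. Signs turned for the difference between lines of FLCN (-0.105 to 0.0698) and PPARGC1A (-0.19 to 0.12), for the level difference of FNIP2 with YES1i (-0.0496 to 0.0061) and of PPARGC1A with DMSO (-0.251 to 0.0541), and for ATP6V0D2 in SUM159 (-0.26 to 1.77). None of these was called in the full fit.

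Replicate numbers did not pair the libraries: DMSO and YES1i libraries of the same number correlated at -0.107 to 0.0116 in their deviations. With the replicate block, 7 of the 8 genes were higher in MDA-MB-231 and 5 in SUM159, as without it, and 4426 in place of 4737 genes were higher in MDA-MB-231. Depth limits RRAGD in SUM159 with DMSO (6 to 28 reads per library) and ATP6V0D2 outside treated MDA-MB-231.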
